A study of Mus musculus with 7 samples.

Results

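The hippocampus of mice carrying a familial Alzheimer's disease genotype (FAD) that had received a control IgG was compared with that of wild-type mice (WT) that had received PBS. The study asked what targeting CD38, a surface enzyme that consumes NAD, does in mice of this genotype, and this comparison sets the model under control treatment beside healthy tissue. The members are the hippocampal wells named FAD with IgG or WT with PBS whose name and sample sheet give the same treatment: 7 FAD IgG and 8 WT mice with 1 well each, 15 of the 47 wells of the series. Genotype and injection differ together, so the effects of the FAD genotype and of the antibody injection cannot be told apart. The transgenes, the promoters that drive them, and the strain, age and sex of the mice were not given in the sources used here. Expression was measured by bulk mcSCRB-seq, in which the 3' ends of transcripts from each well carry a barcode and many wells are sequenced as 1 pool. The wells lay in 7 library pools, 6 of which held both groups, and the pool was a term in the fits reported here. A further 7 hippocampal wells of FAD mice of the CD38 group entered the fit to estimate the spread and are not described.

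In mice that deposit amyloid, microglia, the resident macrophages of the brain, gather at plaques and switch on genes of phagocytosis, lysosomes, lipid handling and antigen presentation. Much of this programme depends on the lipid receptor Trem2 and its adaptor Tyrobp. Astrocytes near plaques become reactive and raise the intermediate filaments Gfap and vimentin. The hippocampus, which forms memories, is among the regions affected early in Alzheimer's disease, and its pyramidal cells of field CA1 are among its vulnerable neurons.

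Total counts per well ran from 2320448 to 4115439 in FAD IgG and from 2420206 to 4771349 in WT, and their means did not differ beyond the spread (two-sided exact permutation p = 0.684). Ribosomal RNA took more than 10% of the counts in 3 of the 15 wells, with 15.3% in FAD IgG 4, 10.3% in FAD IgG 7 and 23.7% in WT 8. The mitochondrial share was 4.99% ± 0.551 (SD, n = 7) in FAD IgG and 5.72% ± 0.781 (n = 8) in WT (two-sided exact permutation p = 0.0594). After removing pool means the same permutation over all wells gave p = 0.00777. It moved labels across pools, not only within them, so this second p is approximate. The tissue carried its markers: all 10 genes of CA1 pyramidal cells and all 19 of dentate granule cells were tested, and Spink8, a serine protease inhibitor of hippocampal pyramidal cells, was counted in every well, at 39.3 CPM or more. CPM here is the count scaled to a common library size, corrected by the library's TMM factor, so levels can be set beside each other between mice. Transcripts of choroid plexus, the tissue that makes cerebrospinal fluid, stood out in 1 well. The summed level of the choroid plexus and ependymal genes was 9439 CPM in FAD IgG 4, nearly all of it Ttr (9341 CPM), against 49.3 to 135 CPM in the other 6 FAD IgG wells and 56.6 to 296 CPM in WT.

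Of 13445 genes tested with edgeR's quasi-likelihood test, 615 rose in FAD IgG (4.57%) and 54 fell (0.402%), 669 in all (4.98%), with the Benjamini-Hochberg adjusted p held to 0.05. The rise was broad and large, and the fall small. The risen genes had a median log2 fold change of 1.36, with 427 at least 2-fold, 154 at least 4-fold and 53 at least 8-fold higher. The fallen genes had a median of -0.51, and 6 were at least 2-fold lower, while the median over all genes was 0.01. For 385 genes (2.86%) every FAD IgG mouse lay above every WT mouse, and for 18 (0.134%) every one lay below. The risen genes were mostly of low abundance and together took 4.25% of the counts in FAD IgG and 2.01% in WT. In a whole-tissue sample more cells of a type and more RNA per cell cannot be told apart, and this holds for every gene below. The counts depended on the method, with 1228 higher and 718 lower under voom with sample weights and 710 and 126 with DESeq2. The number of fallen genes also depended on which wells were used: with a single pool left out it was 11 (pool 10), 12 (pool 9), 18 (pool 5), 20 (pool 6), 25 (pool 11), 92 (pool 7) or 146 (pool 8). Without the wells above 10% ribosomal RNA, a choice made after seeing the data, 776 genes were higher (5.73%) and 395 lower (2.91%) of 13552 tested.

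**Figure D1:**
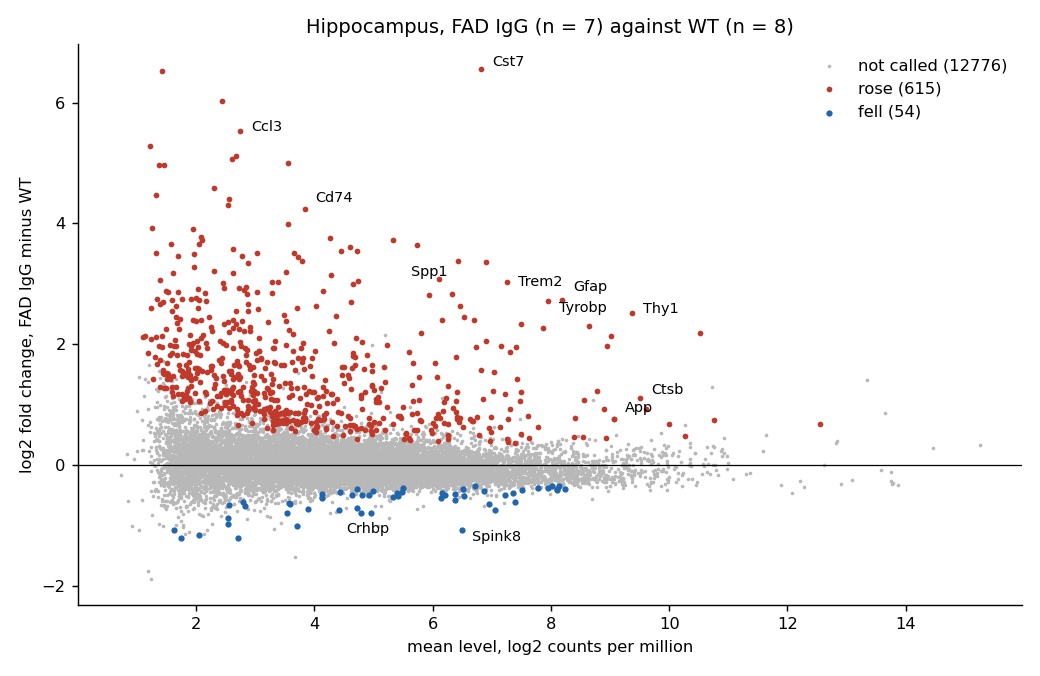
Each point is 1 of the 13445 genes tested, with its mean level (log2 CPM) on the x axis and its log2 fold change, FAD IgG minus WT, on the y axis. The 615 risen genes spread upward to Cst7 at 6.55, while the 54 fallen genes lie close to the line of no change.

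Genes tied to the model came first. Thy1, a surface glycoprotein of neurons, ran from 147 to 175 CPM in WT (median 159) and from 780 to 1075 CPM in FAD IgG (median 951), which is 2.52 ± 0.14 on the log2 scale (fold change ± SE, adjusted p = 3.08e-10). The groups were far apart, with no mouse between them. The promoter of Thy1 is widely used to drive transgenes in neurons, as background. App, the amyloid precursor, had medians of 369 and 602 CPM with overlapping ranges and rose by 0.76 ± 0.17 (adjusted p = 0.00973), a call lost without pool 9 (adjusted p = 0.0638). Whether transcripts of the transgenes were counted under these mouse symbols was not tested. Of 21 genes tested for APP processing and tau 3 were called, and all 3 rose. Mapt, the tau gene, stood at medians of 475 and 496 CPM (0.08 ± 0.15, adjusted p = 0.86). Cd38 itself ran from 5.09 to 13.9 CPM in WT (median 7.43) and from 5.77 to 10.7 in FAD IgG (median 7.22), so the ranges lay on top of each other (-0.12 ± 0.21, adjusted p = 0.847).

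Genes that microglia switch on around plaques had the highest median of the 53 gene lists examined. Of 34 such genes tested 31 rose, with a median log2 fold change of 2.73 beside 0.01 over all genes. Their summed level ran from 632 to 1068 CPM in WT and from 2497 to 3911 CPM in FAD IgG. A gene was tested only if its counts passed a filter over all 22 hippocampal wells of the fit. A gene near absent in WT could thus be tested because it was high in FAD wells. Shares of risen genes in any list therefore hold for tested members only. Of listed genes in the data, 10 of 17 were tested for Trem2 signalling and 11 of 18 for toll-like receptors and the inflammasome. For chemokines it was 14 of 19, for MHC class II 11 of 15 and for complement 16 of 24. Cst7, which encodes cystatin F, an inhibitor of lysosomal proteases, ran from 0.594 to 4.24 CPM in WT (median 1.62) and from 127 to 215 CPM in FAD IgG (median 163). This gene, close to absent in every WT hippocampus and abundant in every FAD IgG one, had the smallest p of all (6.55 ± 0.30, adjusted p = 7.86e-11). Tyrobp, the signalling adaptor of Trem2, ran from 38.0 to 67.5 CPM in WT (median 49.5) and from 295 to 426 in FAD IgG (median 344; 2.72 ± 0.14, adjusted p = 1.34e-10). Trem2 ran from 16.1 to 30.8 CPM (median 26.7) and from 156 to 256 CPM (median 223; 3.03 ± 0.21, adjusted p = 4.14e-09). Neither gene had a WT mouse near the FAD IgG range. Itgax, the integrin CD11c, had only 2 counts over all 8 WT wells and is given as levels, 0 to 0.487 CPM in WT and 4.26 to 8.49 CPM in FAD IgG. Clec7a, the beta-glucan receptor dectin-1, had a median of 0.642 CPM in WT and 15.3 CPM in FAD IgG (5.01 ± 0.43).

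Other members of the same group have roles in digestion and lipid handling. Lyz2, the lysozyme of macrophages, went from a median of 15.3 to 162 CPM (3.36 ± 0.19), Cd68, a lysosomal membrane protein, from 11.8 to 97.9 CPM (3.08 ± 0.20), and Gpnmb, a lysosome-associated glycoprotein, from 4.76 to 36.9 CPM (2.99 ± 0.22). Lgals3, the galectin that binds damaged lysosomes, went from 1.64 to 20.3 CPM (3.39 ± 0.28), and Lpl, lipoprotein lipase, from 48.2 to 84.3 CPM (0.78 ± 0.17). Spp1, the secreted protein osteopontin, ran from 62.4 to 293 CPM among FAD IgG mice and lay above the WT maximum of 22.9 CPM (3.37 ± 0.35). Growth factors were among them too: Igf1 rose by 2.70 ± 0.16 and Csf1, a ligand of the microglial receptor Csf1r, by 1.12 ± 0.18. The 3 members not called were Rai14 (0.46), Fabp5 (0.20) and Ank (0.04).

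**Figure D2:**
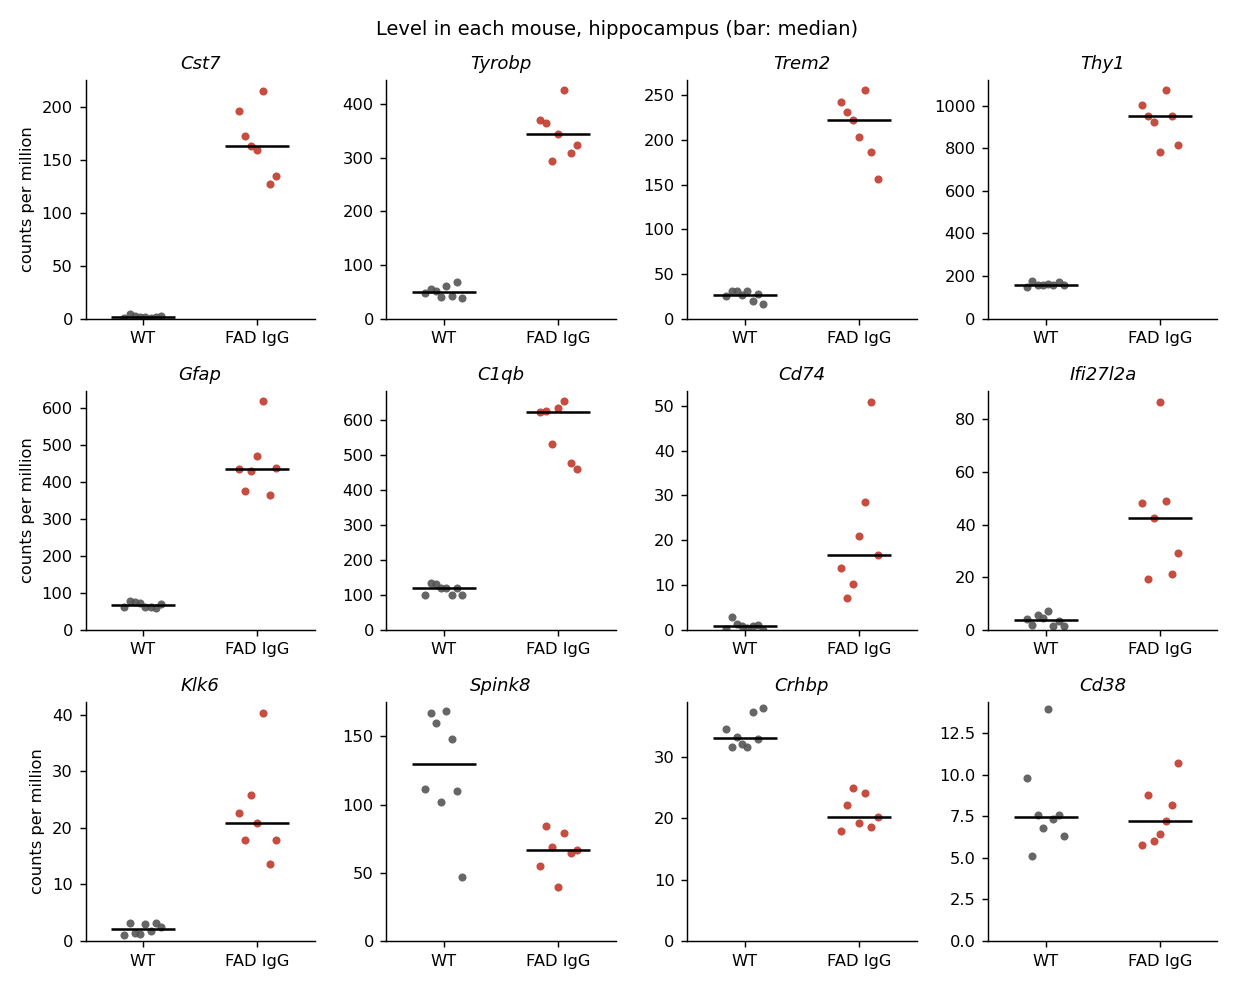
Each panel shows 1 gene in CPM, with a point for each WT (n = 8) and FAD IgG (n = 7) mouse and a bar at the median. Cst7, Tyrobp, Trem2, Thy1, Gfap, C1qb and Cd74 separate the groups fully, Spink8 and Crhbp are lower in FAD IgG, and Cd38 overlaps.

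Genes by which microglia are known in healthy brain were read beside them. Of 23 tested, 19 rose, with a median of 1.23. Csf1r, the growth factor receptor on which microglia depend, ran from 27.7 to 44.2 CPM in WT and from 62.7 to 112 CPM in FAD IgG (1.46 ± 0.15), and Cx3cr1, the fractalkine receptor, from 37.6 to 54.8 and from 72.5 to 106 CPM (1.04 ± 0.12). P2ry12, a purine receptor of resting microglia, rose by 0.78 ± 0.20 (adjusted p = 0.0269), from a median of 29.0 to 51.5 CPM, and lost its call when any of pools 5, 6, 9, 10 and 11 was left out. The 4 members not called were Tmem119 (0.42), Slc2a5 (0.52), Mef2a (0.39) and Bin1 (0.02). The medians of 2.73 and 1.23 come from the same mice, and the difference between the lists was not tested.

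Most genes tested from a list of Trem2 signalling and its regulators rose too. Of the 10 adaptors, kinases and regulators tested, 9 rose (median 1.53), among them Ptpn6, a phosphatase that restrains immune receptors (2.38 ± 0.24), Inpp5d, a lipid phosphatase (1.29 ± 0.21), and Spi1, the transcription factor PU.1 (1.46), while Plcg2 did not pass (0.87, adjusted p = 0.14). Of 6 receptors of IgG tested, 5 rose. Fcer1g, the shared signalling chain, went from a median of 50.4 to 258 CPM (2.33 ± 0.14), Fcgr3 from 16.3 to 71.3 CPM (2.18 ± 0.13), and Fcgr2b, the inhibitory receptor, from 3.21 to 27.4 CPM (3.15 ± 0.20). Fcgrt, the receptor that carries IgG across barriers, was not called (0.14, adjusted p = 0.78). The FAD IgG mice had received an IgG and the WT mice had not, and whether the injection had a part in these values was not tested.

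Innate sensors and secreted signals rose in part. Of 11 genes of toll-like receptors and the inflammasome 8 rose, among them Tlr2, a receptor of bacterial and amyloid ligands (0.765 to 8.48 CPM at the median, 3.58 ± 0.26), Pycard, the adaptor ASC (2.23 ± 0.18), and Cd14 (2.47 ± 0.30). Of 14 chemokines tested 7 rose. Ccl6 went from a median of 4.27 to 52.6 CPM (3.73 ± 0.22). Ccl3 and Ccl4, attractants of leukocytes, had 5 and 7 counts over all WT wells, and their levels were 0 to 0.566 and 0 to 0.666 CPM in WT against 8.14 to 11.5 and 8.21 to 10.9 CPM in FAD IgG. Cx3cl1, the neuronal fractalkine, was not called at -0.33 (adjusted p = 0.085). Of 21 cytokine receptors and their partners 13 rose (median 0.75), such as Tgfbr2 (2.02 ± 0.21), Tnfrsf1a (1.71 ± 0.20) and Osmr (2.23 ± 0.26). Il1a, Il1b and Tgfb1 had too few counts to be tested.

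Genes induced by interferon rose in the same mice. Interferons act through receptors whose STAT and IRF transcription factors bind an element in the promoters of their target genes, the interferon-stimulated response element. To show what such promoters look like, the element was searched as GAAA, then any 2 bases, then GAAA again, on both strands of the 250 bases before each start site in RefSeq (GRCm38.p6). It was present in 291 of the 9862 tested genes that had a promoter in the table (2.95%), and in 32 of 473 risen genes (6.77%). Of the interferon-stimulated genes and interferon-induced GTPases with a promoter there, it was present in 14 of 21 that rose (66.7%) and in 2 of 5 that were tested and not called (40%). GAGGAAGT, a motif of PU.1, the factor of microglia, searched the same way, was present in 266 of the 9862 genes (2.7%), in 26 of 473 risen genes (5.5%) and in 1 of 41 risen genes of plaque-associated and healthy microglia (2.44%). A match describes the letters and does not show binding. In the windows of 50 bases below, from promoters of genes that rose, capitals mark the match, which reads TTTC, 2 bases and TTTC where it lies on the opposite strand:
Bst2, chr8:71537573-71537622, minus strand: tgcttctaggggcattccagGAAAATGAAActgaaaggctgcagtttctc
Ifit3, chr19:34583353-34583402, plus strand: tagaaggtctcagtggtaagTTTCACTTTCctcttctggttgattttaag
Isg15, chr4:156200867-156200916, minus strand: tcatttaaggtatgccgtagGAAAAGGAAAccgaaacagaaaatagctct
Gbp2, chr3:142620584-142620633, plus strand: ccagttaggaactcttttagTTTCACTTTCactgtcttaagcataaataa
Igtp, chr11:58199502-58199551, plus strand: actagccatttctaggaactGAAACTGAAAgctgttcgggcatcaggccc
Irgm1, chr11:48871421-48871470, minus strand: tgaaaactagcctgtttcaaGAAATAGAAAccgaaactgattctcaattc

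Of 26 interferon-stimulated genes tested 21 rose, with a median of 1.53, and of 11 GTPases of the Gbp and Irg families 8 rose, with a median of 1.61. Ifi27l2a, a small membrane protein, ran from 1.46 to 7.17 CPM in WT (median 3.72) and from 19.2 to 86.6 CPM in FAD IgG (median 42.5; 3.55 ± 0.27, adjusted p = 1.69e-08). All FAD IgG mice were above all WT mice, though they spread widely among themselves. Bst2, which tethers budding viruses, went from a median of 6.75 to 27.4 CPM (2.02 ± 0.17), Usp18, a brake on interferon signalling, from 1.04 to 7.39 CPM (3.01 ± 0.28), and Isg15, a ubiquitin-like modifier, from 0.952 to 4.16 CPM (2.25 ± 0.40). Ifit3 rose by 2.04 ± 0.20 and its near-identical neighbour Ifit3b, which carries the same window, by 1.89 ± 0.21, so reads may be shared between them. Among the GTPases, Gbp2 rose by 1.78 ± 0.28 and Irgm1 by 1.01 ± 0.21, both with no overlap between groups, and Igtp, with overlap, from a median of 3.67 to 9.34 CPM. The factors themselves moved as well: Irf9 (1.66 ± 0.24) and Irf7 (1.75 ± 0.31) were among 7 that rose of 12, and of 9 sensors of cytosolic nucleic acid 6 rose, among them Eif2ak2 (1.43 ± 0.23).

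Antigen presentation rose on both arms. Of 11 genes of MHC class II presentation tested 10 rose, with a median of 2.14, H2-DMa being the exception (0.51, adjusted p = 0.1). Without the wells of high ribosomal RNA share H2-DMa was called too (0.45, adjusted p = 0.0493), and all 11 rose. Cd74, the invariant chain that guides class II molecules, ran from 0 to 2.83 CPM in WT (median 0.86) and from 7.12 to 50.8 CPM in FAD IgG (median 16.7; 4.24 ± 0.39, adjusted p = 3.45e-07). H2-Aa, a class II chain, spread even more, from 4.93 to 76.4 CPM in FAD IgG against 1.25 to 3.11 CPM in WT (3.75 ± 0.41). All FAD IgG mice exceeded all WT mice, but among themselves they differed several-fold. H2-Ab1 (3.61 ± 0.43) and Ctss, the protease that trims the invariant chain (2.14 ± 0.17), rose too. Of 21 genes of the class I pathway 13 rose, with a median of 0.87. B2m, the light chain, ran from 110 to 212 CPM in WT and from 544 to 820 CPM in FAD IgG (1.98 ± 0.18), and Psmb8, a subunit of the immunoproteasome, had medians of 11.7 and 46.2 CPM (1.99 ± 0.17). The chaperones Calr (0.20) and Pdia3 (0.07) were not called. H2 genes are near copies of each other, and reads may be shared among them.

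Complement, the opsonin system by which microglia tag and remove synapses and debris, rose in 12 of 16 genes tested, with a median of 1.89. C1qb, a subunit of the initiating C1q complex, ran from 98.2 to 133 CPM in WT (median 118) and from 459 to 656 CPM in FAD IgG (median 622; 2.30 ± 0.13, adjusted p = 4.1e-10), with C1qa (2.63 ± 0.17) and C1qc (2.26 ± 0.16) beside it. C4b went from a median of 16.6 to 128 CPM (2.84 ± 0.21), though its near copy C4a may share reads (3.03 ± 0.28). C3, the central component, went from 0.765 to 7.22 CPM (3.22 ± 0.37), and its receptor C3ar1 from 2.06 to 15.9 CPM (3.19 ± 0.25). Clu, an extracellular chaperone and complement regulator, had medians of 750 and 1002 CPM and was not called (0.53, adjusted p = 0.3). Without the wells of high ribosomal RNA share Clu was called (0.63, adjusted p = 6.75e-05).

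Lysosomal genes divided into those that moved and those that did not. Of 13 cathepsins and their inhibitors 9 rose (median 1.11), and of 32 other lysosomal genes 15 rose (median 0.47). Ctsb, an abundant protease, ran from 310 to 569 CPM in WT and from 768 to 1150 CPM in FAD IgG (1.11 ± 0.14), and Ctsz from 37.0 to 82.1 and from 185 to 284 CPM (1.95 ± 0.16). Counts for cathepsin D are uncertain: Ctsd had medians of 2.39 and 12.5 CPM (2.39 ± 0.49), and Gm49369, a model that overlaps it in the M21 annotation, 435 and 2051 CPM (2.19 ± 0.14). Grn, progranulin, rose by 1.31 ± 0.17 and Npc2, a carrier of cholesterol, by 1.204 ± 0.12. Atp6v0d2, a proton pump subunit of macrophages, had 0 counts in all WT wells and 1.37 to 8.07 CPM in FAD IgG. Psap (0.11), Ppt1 (0.07), Glb1 (-0.06) and the pump subunit Atp6ap1 (-0.02), which most cells express, were not called. Of 21 genes of lipid handling 8 rose, such as Ch25h, which makes an oxysterol (2.75 ± 0.51), the exporter Abca1 (1.11 ± 0.22) and Apod (1.07 ± 0.21), whereas Lrp1 (0.22) was not called. None of 20 genes of cholesterol synthesis was called (median 0.34, 16 above 0), and 6 were without the wells of high ribosomal RNA share.

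Astrocyte genes were read in 2 groups, those of reactive cells and general markers. Of 25 genes of reactive astrocytes 18 rose, with a median of 1.79, and their summed level ran from 312 to 484 CPM in WT and from 1086 to 1952 CPM in FAD IgG. Gfap ran from 60.0 to 77.0 CPM in WT (median 65.95) and from 364 to 618 CPM in FAD IgG (median 435; 2.74 ± 0.14, adjusted p = 1.76e-10). Even the lowest FAD IgG mouse was far above the highest WT mouse. Vim, vimentin, went from a median of 31.4 to 140 CPM (2.40 ± 0.20), Serpina3n, a secreted protease inhibitor, from 20.6 to 108 CPM (2.40 ± 0.17), and Cd44, a hyaluronan receptor, from 3.45 to 13.5 CPM (1.94 ± 0.28). Of 22 genes that mark astrocytes in healthy brain 8 rose and 1 fell (median 0.32). The largest rise was that of Aqp4, the water channel of astrocyte endfeet (1.57 ± 0.27), and the fall was of the glypican Gpc5 (-0.45 ± 0.12). The transporter Slc1a3 rose by 0.47 ± 0.13. Gpc5 was lost without any of pools 5, 6, 7, 9, 10 and 11, and Slc1a3 without any of pools 5, 6, 9, 10 and 11. The genes Slc1a2 (0.33), Glul (0.19), Aldoc (0.11) and Slc7a10 (-0.02) were not called.

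Oligodendrocytes, which make myelin, were read through genes linked to disease and genes of myelin. Of 12 genes reported in oligodendrocytes near plaques 8 rose, with a median of 1.93, although several of these (Serpina3n, C4b, B2m, H2-D1, Cd9) are also made by other glia. Klk6, a secreted protease of oligodendrocytes, ran from 1.003 to 3.11 CPM in WT (median 2.11) and from 13.6 to 40.3 CPM in FAD IgG (median 20.9; 3.45 ± 0.26, adjusted p = 1.18e-08). Endou, an endoribonuclease, ran from 1.13 to 2.57 CPM and from 7.66 to 21.7 CPM (2.86 ± 0.21). Both separated the groups completely. Of 22 genes of mature oligodendrocytes and myelin 2 rose (9.09%, beside 4.57% of all genes). They were Cldn11, a junction protein of myelin (1.06 ± 0.13), and Trf, transferrin (0.76 ± 0.21). Trf was lost without pools 5, 6, 7 and 10. Mbp, myelin basic protein, was not called (0.27 ± 0.13), and the list's median was 0.30. Of 15 genes of oligodendrocyte precursors 1 rose (6.67%), Enpp6 (0.99 ± 0.26), a call lost without pools 5, 6, 9, 10 and 11.

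**Figure D3:**
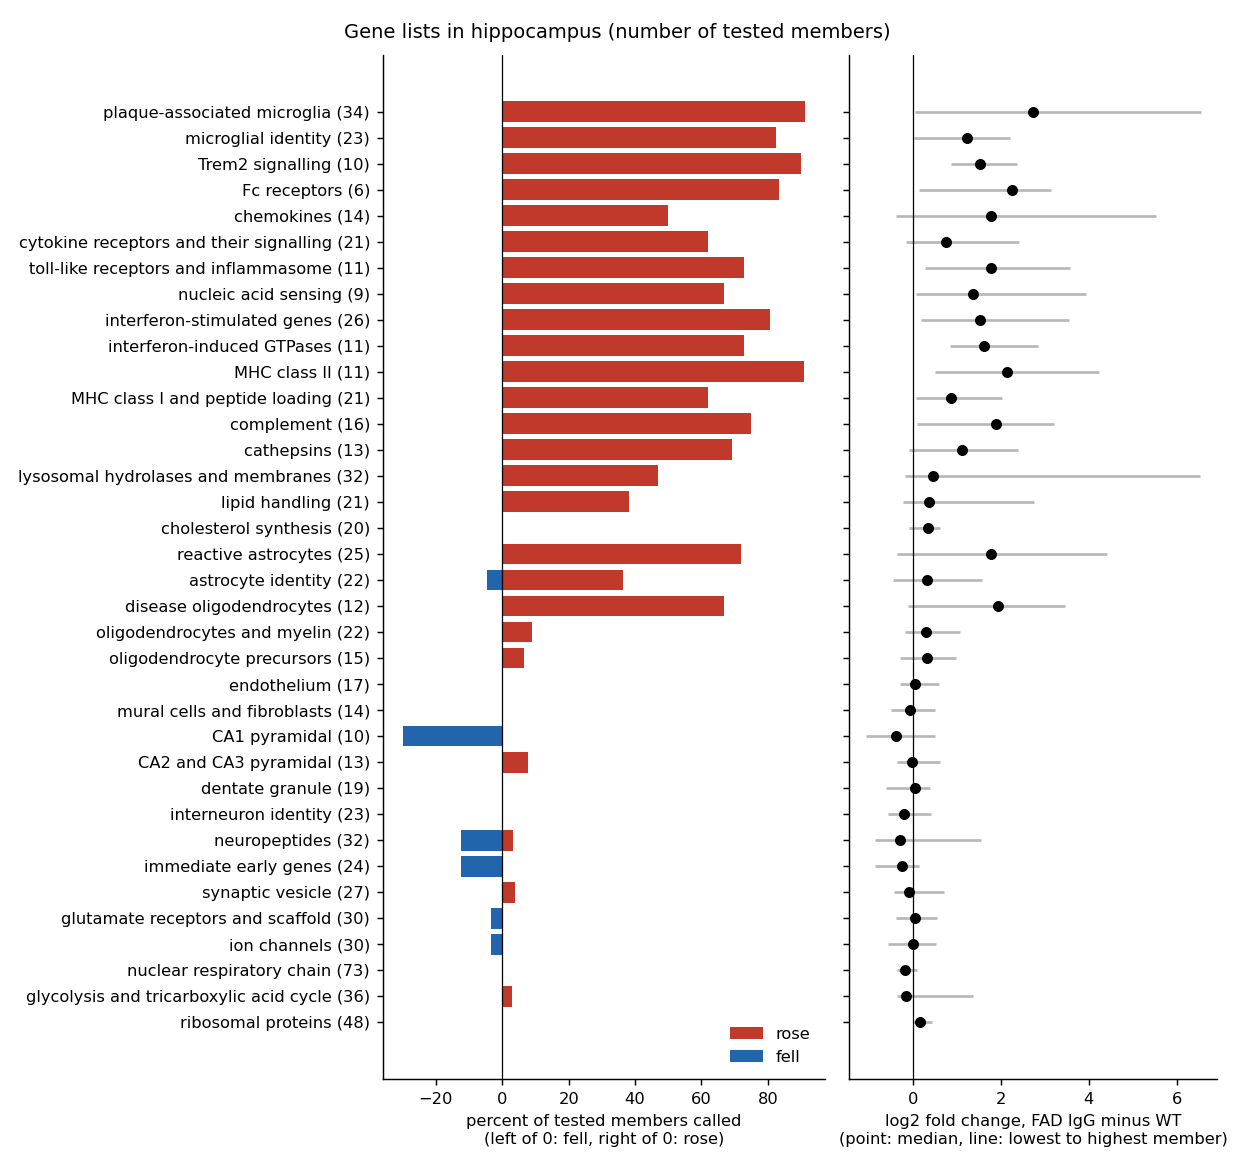
For each gene list, the panels show the share of tested genes that rose or fell (percent) and the median log2 fold change, FAD IgG minus WT. Lines run from the lowest to the highest member. Plaque-associated microglia have the highest median (2.73, 31 of 34 genes risen), followed by Fc receptors (2.26), MHC class II (2.14) and disease oligodendrocytes (1.93), and lists of neurons and metabolism lie near or below 0.

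Genes of vessel cells gave no calls, and most of those of blood cells had low counts, though some were higher in FAD IgG. None of 17 endothelial genes (median 0.05) and none of 14 genes of mural cells and fibroblasts (median -0.06) was called. Of macrophages at vessels only Pf4 could be tested, and it was not called (0.17), while Mrc1, Cd163 and Lyve1 had at most 33 counts in either group. Of 12 lymphocyte genes of T and NK cells 2 were tested. Ccl5, a chemokine, rose by 2.33 ± 0.36, and Trbc2 was not called (0.18). Cd3d had 30 counts in FAD IgG and 3 in WT, Nkg7 had 34 and 3, and Cd8a 10 and 2, too few to test. The summed level of the T and NK genes ran from 14.9 to 23.6 CPM in FAD IgG and from 3.37 to 10.9 CPM in WT. Ighm, the heavy chain of IgM, rose by 1.09 ± 0.21, with medians of 21.4 and 49.3 CPM, and Cd79a had 3 counts in FAD IgG and 0 in WT. S100a8, S100a9 and Ccr2, markers of neutrophils and monocytes, had at most 5 counts in either group.

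Neuronal genes changed far less, and most of the changes were small falls. Spink8 ran from 46.8 to 169 CPM in WT (median 130) and from 39.3 to 84.3 CPM in FAD IgG (median 66.96; -1.08 ± 0.20, adjusted p = 0.00117), and the ranges overlapped through the lowest WT mouse. Crhbp, which binds corticotropin-releasing hormone and is made by interneurons, ran from 31.6 to 38.0 CPM in WT (median 33.1) and from 18.02 to 24.9 CPM in FAD IgG (median 20.3; -0.70 ± 0.13, adjusted p = 0.00114), with no overlap. Of 10 genes of CA1 pyramidal cells 3 fell: Spink8, Fibcd1, a chitin receptor (-0.44 ± 0.12), and Ccn3, a matrix protein (-0.48 ± 0.13), with a list median of -0.38. Their summed level was 685 to 906 CPM in WT and 544 to 628 CPM in FAD IgG, with no overlap. Of 13 genes of CA2 and CA3 1 rose (7.69%, beside 4.57% of all genes), Ccdc3 (0.62 ± 0.17), and none fell. Of 19 dentate granule genes none was called (median 0.04). The summed level of the dentate genes was 575.9 to 693.1 CPM in WT. It was 809.6 CPM in FAD IgG 7, a well of high ribosomal RNA share, and 504.0 to 576.9 CPM in the other FAD IgG wells. Without the wells of high ribosomal RNA share 15 of the 19 lay below 0 (median -0.095, beside -0.039 over all genes). Fibcd1, Ccn3 and Ccdc3 were each lost when any of 5 single pools was left out: for Fibcd1 pools 5, 6, 9, 10 and 11, for Ccn3 pools 5, 6, 7, 9 and 10, and for Ccdc3 pools 5, 6, 7, 9 and 11. Without the wells of high ribosomal RNA share, where 2.91% of all genes fell, 4 CA1 genes fell (with Pou3f1) and 2 dentate genes (Calb1 and Cabp7), and the same background holds for the counts under this setting given below.

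Interneurons and neuropeptides were read next. None of 23 interneuron genes was called, and 16 lay below 0 (median -0.21), as did 48.8% of all genes tested, and their summed level ran from 2011 to 2442 CPM in WT and from 1707 to 1892 CPM in FAD IgG without overlap. Of 32 genes of neuropeptides and their binding proteins 4 fell and 1 rose (median -0.30). The fallen genes were Crhbp, Igfbp4 (-0.53 ± 0.12), Apln, the ligand apelin (-0.78 ± 0.18), and Cartpt (-0.87 ± 0.24), and Igfbp5, a binding protein of insulin-like growth factors, rose by 1.54 ± 0.20. Sst, somatostatin, had medians of 133 and 98.5 CPM and was not called (-0.45 ± 0.17, adjusted p = 0.179), nor were Cck (-0.42 ± 0.12, adjusted p = 0.0616) and Npy (-0.31 ± 0.30). Without the wells of high ribosomal RNA share these 3 were among the 10 neuropeptide genes that fell. The same 3 were the interneuron genes that fell under that setting (3 of 23). Of the interneuron genes 20 then lay below 0, as did 7692 of all 13552 genes tested. Pnoc, the precursor of nociceptin, fell by 0.64 ± 0.16 on the log2 scale. Igfbp4 was lost without pools 6 and 11, Apln without pool 7, Cartpt without pools 5, 6, 7, 9 and 10, and Pnoc without pools 7, 9, 10 and 11.

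Of 24 immediate early genes, which neurons switch on when active, 3 fell and 21 lay below 0 (median -0.26). They were Nr4a1, an orphan nuclear receptor (-0.74 ± 0.15), Dusp5, a phosphatase of MAP kinases (-0.79 ± 0.17), and Junb (-0.63 ± 0.18). Nr4a1 ran from 13.9 to 46.7 CPM in WT (median 29.2) and from 10.2 to 22.1 CPM in FAD IgG (median 16.2), so the ranges overlapped. Arc (-0.68 ± 0.24, adjusted p = 0.146) and Egr1 (-0.41 ± 0.15, adjusted p = 0.165) were not called. Nr4a1 was lost without pool 6, Dusp5 without pool 9 and Junb without pools 5, 6, 9 and 11, while without the wells of high ribosomal RNA share 6 of the group fell, Arc among them. The summed level ran from 811 to 1266 CPM in WT and from 615 to 846 CPM in FAD IgG.

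Few synaptic genes were called, against 4.57% higher and 0.402% lower over all genes. Of 27 genes of synaptic vesicles 1 rose, Rims1, a scaffold of the release site (0.71 ± 0.20, adjusted p = 0.0499), and this call was lost without pools 5, 6, 9, 10 and 11. Of 30 genes of glutamate receptors and their scaffold 1 fell, Cnih2, a partner of AMPA receptors (-0.38 ± 0.10), of 16 inhibitory receptor genes none was called, and of 30 ion channels 1 fell, Kcnip2 (-0.57 ± 0.16). Cnih2 was lost without pools 6, 7, 9, 10 and 11, and Kcnip2 without pools 5, 6, 9, 10 and 11. Among other fallen genes were Kcng2, a potassium channel subunit (-0.53 ± 0.13), Crym, which binds thyroid hormone (-0.60 ± 0.15), Plpp6, a lipid phosphatase (-0.46 ± 0.11), and Tsc22d3, which glucocorticoids induce (-0.74 ± 0.18). Kcng2 was lost without pools 9 and 10, Crym without pools 5, 6, 9 and 10, Plpp6 without pools 6 and 11, and Tsc22d3 without pools 5, 9 and 10. Of the fallen genes described, only Crhbp and Spink8 kept their call in every alternative run. Without the wells of high ribosomal RNA share 1 vesicle gene fell (Rab3a), 2 of glutamate receptors (Cnih2, Homer2), 2 inhibitory receptors (Gabra5, Gabrd) and 1 channel (Kcnip2). Under that setting 1 vesicle gene and 1 glutamate receptor gene rose. In the same order of lists, 24 of 27, 24 of 30, 13 of 16 and 25 of 30 genes lay below 0, as did 7692 of all 13552.

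**Figure D4:**
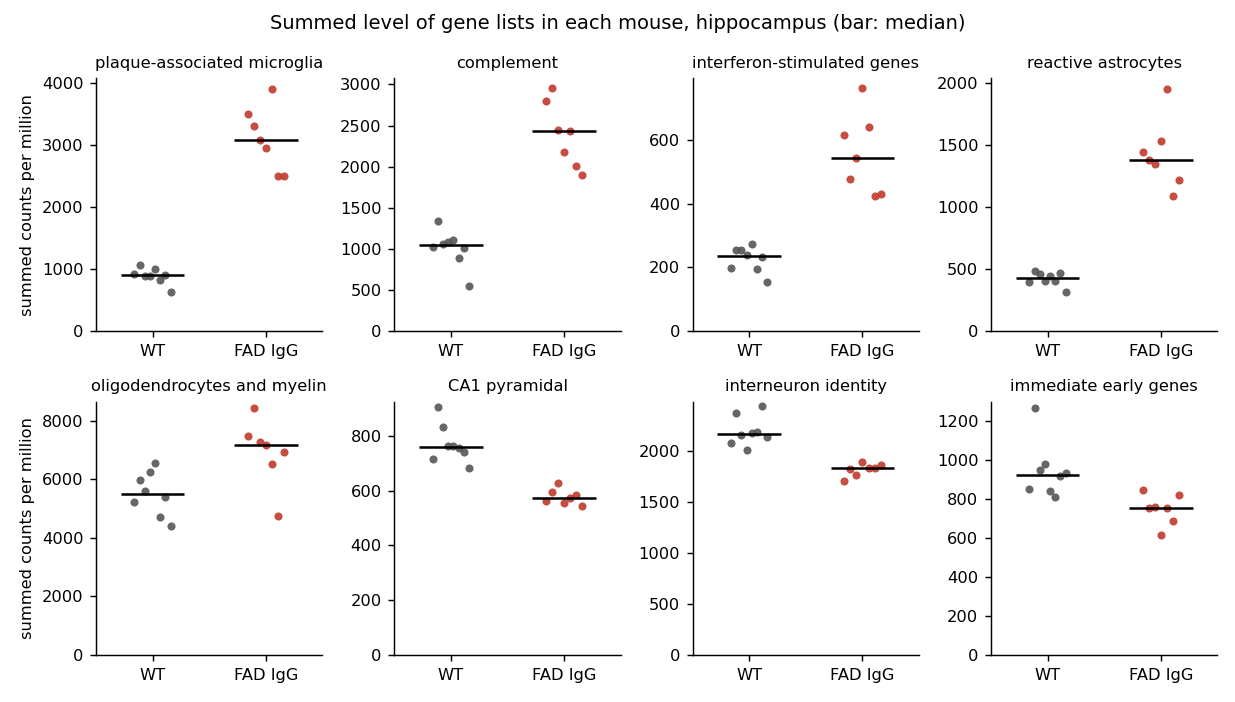
Each panel shows the summed level of 1 gene list in CPM, with a point for each WT (n = 8) and FAD IgG (n = 7) mouse and a bar at the median. Plaque-associated microglia and reactive astrocytes lie higher in every FAD IgG mouse, and CA1 pyramidal and interneuron genes lie lower in every one.

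Genes of energy metabolism lay slightly below 0 as groups, with few calls. Of 73 nuclear genes of the respiratory chain none was called, and 70 lay below 0 (median -0.19), and all 11 genes of the mitochondrial genome lay below 0 with none called (median -0.28). Of 36 genes of glycolysis and the tricarboxylic acid cycle 1 rose (2.78%), the hexokinase Hk2 (1.37 ± 0.21), and 31 lay below 0 (median -0.17). The mean mitochondrial share of counts was also lower in FAD IgG, as given above, and its part in these values was not tested. Without the wells of high ribosomal RNA share 6 respiratory genes fell, such as Cyc1 (-0.35) and Atp5b (-0.29), and 6 of the tricarboxylic acid cycle, such as Idh3b (-0.36). Of 23 genes that make or use NAD, the substrate of CD38, 2 rose (8.7%, beside 4.57% of all genes). They were Parp3 (1.53 ± 0.35), lost without pool 9, and Naprt, an enzyme of NAD synthesis (0.72 ± 0.20), lost without pools 5, 6, 9 and 10. Of 30 antioxidant and metal-binding genes 7 rose. Prdx6, a peroxiredoxin that astrocytes express, went from a median of 465 to 903 CPM (0.92 ± 0.12), Nfe2l2, the transcription factor NRF2, from 8.99 to 21.7 CPM (1.12 ± 0.15), and Hmox1, which breaks down haem, from 0.82 to 2.64 CPM (1.74 ± 0.47), a call lost without any of pools 6, 7, 9 and 11, while Sod1 (0.05) and Gpx4 (0.02) were not called.

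The same contrast was made in cortex (7 FAD IgG and 9 WT wells) to find where the hippocampus differed. The difference of the 2 effects was tested in limma by voom, which took the wells of a mouse as correlated, and 24 genes had a higher effect in hippocampus (0.173%) and 3 in cortex (0.0217%) of 13854 tested. Endou had a log2 fold change of 2.74 in hippocampus and 0.66 in cortex, a difference of 2.08 (adjusted p = 3e-06), and Klk6 3.58 and 2.13, a difference of 1.45. Klk6 is a protease of oligodendrocytes, as given above. Which cells the transcripts of either gene came from was not tested. Cd74 had 4.49 and 2.04 (difference 2.45), Cybb, the NADPH oxidase of phagocytes, 4.43 and 2.47 (1.95), and Timp1, an inhibitor of matrix proteases, 4.30 and 2.13 (2.173). S100a6 (1.18) and Lgals1 (0.82), a calcium-binding protein and a galectin, were higher in hippocampus too, and Ighm had 1.11 in hippocampus and 0.11 in cortex. Serpina3n went the other way, with 2.44 in hippocampus and 3.66 in cortex (difference -1.22), so it rose in both regions and more in cortex. For Cst7 the difference was -0.13 (adjusted p = 0.94), for Trem2 0.13 (adjusted p = 0.91) and for Thy1 0.32 (adjusted p = 0.613), and this does not show that the effects were equal. Of the 27 genes only Endou, Klk6, Lgals1 and S100a6 kept their call in every alternative run. Without pool 9 there were 6 genes in all, without pool 5 or pool 8 9, and without pool 11 13, Cd74 being lost without pool 8, Cybb and Timp1 without pools 5, 8 and 9 (Cybb also with edgeR and each mouse as a fixed block), Ighm without pool 9 and Serpina3n without pools 7, 9 and 11.

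**Figure D5:**
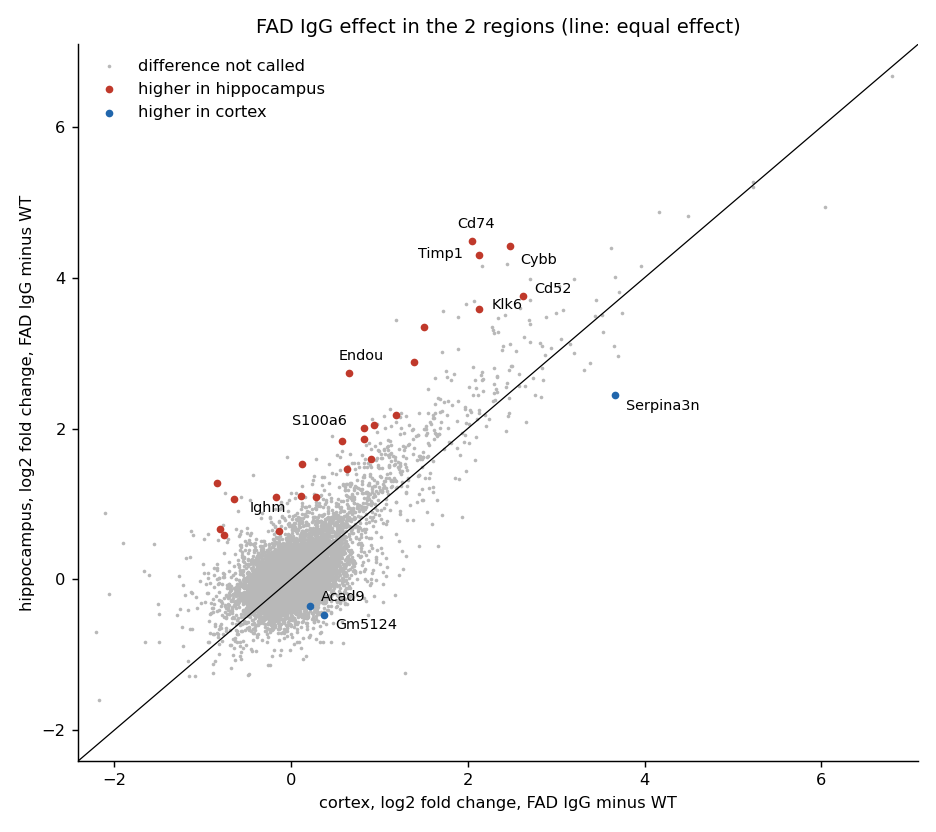
Each point is 1 of the 13854 genes tested, with the log2 fold change of FAD IgG against WT in cortex on the x axis and in hippocampus on the y axis, and the line marks equal effects. The 24 genes with a higher effect in hippocampus, such as Endou, Klk6 and Cd74, lie above the line, and the 3 with a higher effect in cortex, such as Serpina3n, lie below it.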

How the data were processed

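Bulk mcSCRB-seq libraries were made from total RNA, per the labels' protocols. The authors deposited 1 table of raw counts, with genes by symbol in rows and wells in columns, per the file headers, and a sample sheet whose batch, a library pool, is an integer that the authors deposited. Of 20859 genes listed, counts were used as deposited. Per the submitters' processing notes the tools included bcl2fastq 2.17 and STAR 2.5.3a. The genome build, the annotation and the counting program were not given in the sources used here. Ribosomal RNA and mitochondrial genes were picked by symbol. The mitochondrial ribosomal RNAs, mt-Rnr1 and mt-Rnr2, were counted in the ribosomal RNA share and left out of the mitochondrial share.

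Each deposited sample is a library pool of several mice, so the group of each well came from its name and the sheet. For 1 mouse of pool 8 these conflicted, and its 2 wells were left out. No pair of wells within a group was a repeat of another, since the lowest ratio of chi-square to degrees of freedom was 2.55. Counts of 22 hippocampal wells entered edgeR's quasi-likelihood fit (version 4.0.16, R 4.3.3, robust, TMM factors, genes kept by filterByExpr at its minimum count, 10, and total, 15), with group and pool as terms. Calls were two-sided and used a Benjamini-Hochberg threshold of 0.05. The difference between regions was fitted with limma 3.58.1 (voom). In this 3' assay longer transcripts do not give more counts. The common dispersion had a square root of 0.232, and at 2320448 counts or more per FAD IgG or WT well (1428454 or more in the FAD CD38 wells) a gene of a few CPM rests on few counts. Tested on simulated data, the fit recovered 16.4%, 56.7% and 95.5% of genes changed by 1.5, 2 and 4-fold among 13213 genes in hippocampus, and the fit of the region difference 10.4%, 52.2% and 93.9% among 13313. Of the unchanged genes the first called 3 and the second 10. The simulated wells shared 1 mean level per gene, scaled to each library's size, with the spread fitted in hippocampus. They held no differences between pools and no wells of high ribosomal RNA share. For the region difference the hippocampal spread also stood for cortex, with a fixed spread between mice. These rates hold for such data only and may differ in the real wells.

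The members and the 53 gene lists were chosen with earlier results of these data known. Named genes were the 20 of smallest p in each direction, Cst7, Tyrobp, Cd74 and Spink8, the check genes Thy1, App, Mapt and Cd38, from each list up to 6 members by smallest p, and those whose effect differed between regions. Other list members in the text were chosen after their values were seen, and some genes that this rule names are not reported here. Alternatives were DESeq2 1.42.0, RLE factors, testing all genes however low, keeping those whose mean count reached 10, the pool left out, only the 2 groups, mitochondrial genes left out, voom with sample weights, and each pool left out. Chosen after seeing the data were leaving out the 4 wells above 10% ribosomal RNA, that share as a covariate, taking the conflicting mouse as FAD IgG, and a filter by group size.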

Additional observations from a re-analysis of the deposited data

Results flagged for a closer look

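In 202 groups of values tested for a single well far from the others (totals, RNA shares, summed list levels and 45 single genes, in FAD IgG and in WT), 25 (12.4%) held one, where chance flags about 1 in 20. WT 8 accounted for 13 of them. Its ribosomal RNA share was 23.7% against 3.18% to 5.57% in the other WT wells. Its summed levels stood high for cytokine receptors (439 CPM), nucleic acid sensing (48.3), astrocyte identity (7052), glutamate receptors (7654), ion channels (2332) and NAD metabolism (850 CPM), and low for mossy cells and neurogenesis (830.0) and the nuclear respiratory chain (20937 CPM). Single genes low in WT 8 were Crym (148 CPM), Dusp5 (19.98), Fcgr2b (0.487) and Ly86 (12.7). WT 2 stood high for oligodendrocyte precursors (798 CPM), immediate early genes (1266), Ankrd13d (43.3), Cd74 (2.83) and Fam131a (247), and WT 1 low for microglial identity (749 CPM). Among FAD IgG wells, FAD IgG 4 stood high for choroid plexus and ependyma (9439 CPM) and C1qa (189), FAD IgG 7 for dentate granule genes (810 CPM) and Fam131a (210.5), FAD IgG 1 for Fcgr3 (107) and FAD IgG 5 for Gfap (618).

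The effect of FAD IgG against WT differed between hippocampus and cortex in 27 genes, by the test of the difference itself. Beside the genes given in the report (Endou 2.08, Klk6 1.45, S100a6 1.18, Cd74 2.45, Lgals1 0.82, Cybb 1.95, Timp1 2.173, Ighm 1.003 and Serpina3n -1.22), the log2 difference, hippocampus minus cortex, was 1.13 for Cd52, 1.49 for Lsp1, 0.83 for H2-T23, 1.04 for Srgn, 0.99 for Hpgds, 1.84 for Gm4951, 0.70 for Clic1, 1.41 for Emp3 and 1.12 for P4ha3. These 9 were higher in FAD IgG in both regions, by the fitted values. The effect was above 0 in hippocampus and below 0 in cortex for Chrdl1 (difference 1.72), Abhd11os (1.48), Nexn (1.25), 3110082J24Rik (1.35), Aldh1l1 (0.77) and Ccnb1 (2.11). It was below 0 in hippocampus and above 0 in cortex for Acad9 (-0.58) and Gm5124 (-0.84). Gm42674 (1.26) overlaps S100a3 and S100a4 in the M21 annotation, so reads may be shared among them. With edgeR and each mouse as a fixed block, Cybb, Hpgds, Gm4951, Clic1, P4ha3, Chrdl1, Nexn, 3110082J24Rik, Ccnb1, Acad9 and Gm42674 were not called.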

How the results depend on the processing

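The number of genes higher in FAD IgG (615) moved to 1228 under voom with sample weights and ran from 454 to 685 with 1 pool left out. The number lower (54) moved to 126 with DESeq2, 31 with no filter on low counts, 718 under voom with sample weights, 395 without the wells of high ribosomal RNA share, 418 with that share as a covariate and 109 with the conflicting mouse taken as FAD IgG, and ran from 11 to 146 with 1 pool left out. The number of genes whose effect differed between regions (27) was 369 under voom with sample weights and ran from 6 to 29 with 1 pool left out. Those higher in hippocampus (24) were 221 and ran from 6 to 28, and those higher in cortex (3) were 148 and ran from 0 to 4. The difference in ribosomal RNA share, FAD IgG minus WT, changed sign after removing pool means, from -0.111 to 2.06 percentage points (two-sided exact permutation p = 0.945 and 0.379), and the difference in mitochondrial share passed only then (-0.895, two-sided exact permutation p = 0.00777). The cause of these moves was not tested. Of the named genes 172 rose, and 144 of these kept their call in every alternative, while of 26 that fell only Crhbp and Spink8 did. No called gene among them changed direction, whereas several named genes that were not called, Cd38, Mapt and Ttr among them, lay on either side of 0 depending on the alternative. Within hippocampus the wells carry no replicate numbers shared between groups, and the pool was the only block. For the difference between regions, where wells pair by mouse, edgeR with each mouse as a fixed block gave 22 genes, 19 higher in hippocampus (14 of them among the 24) and 3 in cortex (2 of them among the 3). At this depth and spread small changes are often missed, so a gene that was not called may have changed by less than could be detected.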

Other observations

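Several genes among the 20 of smallest p belong to none of the lists described. Ly86, a partner of a toll-like receptor relative, went from a median of 23.1 to 119 CPM (log2 fold change 2.46 ± 0.14), Mpeg1, a pore-forming protein of macrophages, from 4.15 to 35.6 CPM (3.05 ± 0.18), Bcl2a1b, a survival factor of the Bcl-2 family, from 2.46 to 30.6 CPM (3.55 ± 0.23), and Samsn1, an adaptor of immune cells, from 1.47 to 9.85 CPM (2.83 ± 0.18). In each of these every FAD IgG mouse lay above every WT mouse. In all, 376 of the 615 risen and 40 of the 54 fallen genes were in none of the 53 lists.

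Matrix and stress genes gave mixed counts. Of 17 genes of the extracellular matrix, its proteases and integrins 8 rose (median 0.74), with Itgb5, an integrin chain, at medians of 42.7 and 81.2 CPM (1.12 ± 0.14). Of 9 serpins 4 rose (median 0.36), among them Serping1, the C1 inhibitor (1.49 ± 0.20). Of 25 chaperones and genes of unfolded proteins 1 rose (4%, beside 4.57% of all genes), Hspb1, a small heat shock protein (1.45 ± 0.38). Its call was lost without any of pools 5, 8, 9 and 10, with no filter on low counts, and with the conflicting mouse taken as FAD IgG. None of 48 ribosomal protein genes was called, and 47 lay above 0 (median 0.16). Of 9 genes of cell division none was called (median -0.03).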
